A study of Mus musculus with 12 samples.

Results

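The lysyl oxidase family comprised 5 genes, Lox and the lysyl oxidase-like genes Loxl1, Loxl2, Loxl3 and Loxl4, taken by symbol from the 55418 genes of the count table. They were read in single tendon cells of 2 genotypes, 6 Tnmd-/- ScxGFP+ cells and 6 WT ScxGFP+ cells, picked by their green fluorescence after collagenase digestion of uninjured, untreated Achilles tendons of mice on a C57BL/6J background. ScxGFP, carried by both genotypes, is a transgene that reports the promoter activity of Scleraxis, a transcription factor of tendon cells, and the knockout of tenomodulin (Tnmd), a membrane glycoprotein of tendon cells, is constitutive. Tnmd lies on the X chromosome, and the WT animals of the study included heterozygous females. The age of the animals that gave these cells is not given in the sources used here.

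Lysyl oxidases are secreted copper-dependent amine oxidases. They convert lysines and hydroxylysines of collagens and elastin into reactive aldehydes, from which the covalent cross-links of fibrils and elastic fibres form. Lox and Loxl1 carry a pro-peptide that extracellular proteases remove, while Loxl2, Loxl3 and Loxl4 carry scavenger receptor cysteine-rich domains in its place. In tendon, this chemistry gives collagen fibrils their tensile strength.

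The labels tie no cell to an animal, so each genotype was taken as 1 sample, no test was made between genotypes, and values over cells are described by their range. Total counts ran from 892713 to 10333351 in Tnmd-/- cells and from 4516036 to 13613080 in WT cells. In the study's own annotation, which the labels do not carry, 3 cells of each genotype were marked as less degraded (Tnmd-/- cells 9, 10 and 20, WT cells 4, 5 and 10) and the other 3 as more degraded. Tnmd itself had 8 counts in Tnmd-/- cells and 10185 in WT cells, of which WT cell 14 gave 99.9%, so that it did not set the other WT cells apart from the knockout. Of 10 tendon fibroblast markers, 9 had a count (Kera was at 0), and their summed level lay between 1684 and 87463 CPM (counts per 1000000 counts of the cell) in Tnmd-/- cells and between 30395 and 176923 CPM in WT cells, lowest in Tnmd-/- cell 3, where mitochondrial genes took 51.8% of the counts. Dcn gave most of this sum in the highest cells, with 76582 CPM in Tnmd-/- cell 10 and 133605 CPM in WT cell 14. In Tnmd-/- cell 1 Dcn gave 7337 of 26458 CPM. Col1a1, another of these markers, had 0 counts in Tnmd-/- cells 3, 9, 10 and 20 and in WT cell 10. Scx had 3 counts in Tnmd-/- and 2074 in WT cells. The WT counts were 1355 in cell 4, 544 in cell 10, 174 in cell 1, 1 in cell 5 and 0 in cells 2 and 14, so that Scx did not set these last 3 WT cells apart from the knockout.

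Lox was the member of the family seen in every cell, where seen means at least 10 counts, and the other members were seen in few cells or not at all. Lox had at least 10 counts in all 12 cells, Loxl2 in 5 and Loxl4 in 1, whereas Loxl1 and Loxl3 had 0 counts in every cell. Of all 55418 genes, 76.1% also had 0 counts in every cell. Reaching 10 counts everywhere was uncommon: of the 10123 genes that did so anywhere, 2.10% did in all 12 cells and 42.0% in a single one. Over all cells Lox had 73422 counts, Loxl2 had 1219 and Loxl4 had 1427 and 7 in the 2 genotypes. Loxl1, the elastic fibre member of the family, and Loxl3 had 0 counts in the summed libraries. This allows a level among the reads of up to 0.0855 CPM in Tnmd-/- and 0.0561 CPM in WT cells (3 counts of the sum, counting error only). Transcripts lost before sequencing are not covered by this limit. In the shallowest library, Tnmd-/- cell 7, the same limit was 3.36 CPM.

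**Figure D1:**
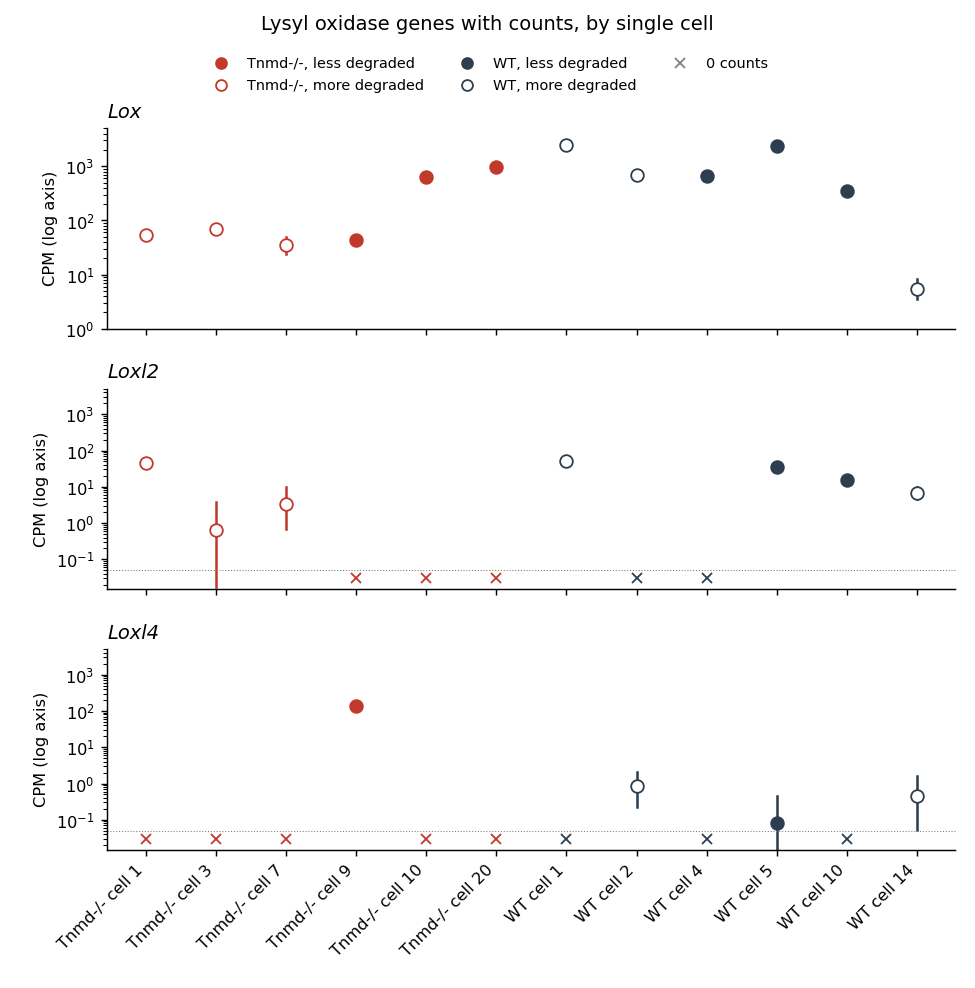
CPM (log axis) of Lox, Loxl2 and Loxl4 in each of the 12 cells, with 95% Poisson intervals for counting error as bars. Red marks Tnmd-/- and dark blue WT cells, filled circles are less degraded and open circles more degraded cells, and crosses stand for 0 counts. Lox was counted in every cell, from 5.54 CPM in WT cell 14 to 2481 CPM in WT cell 1.

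In the annotation that the counts follow (GRCm38, GENCODE M21), Lox (ENSMUSG00000024529) lies on the minus strand of chromosome 18 from 52516067 to 52529867. Loxl1 (ENSMUSG00000032334) lies on the minus strand of chromosome 9 from 58287738 to 58313186. Loxl2 (ENSMUSG00000034205) lies on the plus strand of chromosome 14 from 69609068 to 69695834. Loxl3 (ENSMUSG00000000693) lies on the plus strand of chromosome 6 from 83034173 to 83052562, and Loxl4 (ENSMUSG00000025185) on the minus strand of chromosome 19 from 42593982 to 42612813. All 5 are protein-coding, and the values below count reads in their exons only. Of the exon bases of Loxl3, 11.6% are shared with Htra2 on the opposite strand, a mitochondrial protease gene with 0 counts in all cells. Of those of Loxl2, 5.70% are shared with other genes, which had 0 counts too, and of those of Lox 0.628%. Exons of Loxl1 and Loxl4 overlap no other gene.

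Levels of different genes were compared per length, as TPM (transcripts per 1000000, which are counts divided by exon length and then scaled to that sum). In the summed libraries Lox was at 219 TPM in Tnmd-/- and 595 TPM in WT cells, places 564 and 221 among all genes. Loxl2 followed at 3.40 and 8.62 TPM, so that Lox stood 64.4-fold and 69.1-fold above it. The Tnmd-/- value rests on cell 1, which held 242 of the 246 Loxl2 counts. It was 39.1-fold with each cell weighted equally and 3882-fold without cell 1. Loxl4 was at 25.3 TPM in the Tnmd-/- cells, all of it from 1 cell, and at 0.0795 TPM in the WT cells. The order of the members was therefore Lox, Loxl4 and Loxl2 in the Tnmd-/- sum, and Lox, Loxl2 and Loxl4 in the WT sum, with Loxl1 and Loxl3 at 0 in both. The place of Loxl4 above Loxl2 in the Tnmd-/- cells rests on cell 9, since Loxl4 had 0 counts in the other 5.

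Lox in the Tnmd-/- cells was at 52.9 CPM in cell 1, 69.1 CPM in cell 3, 34.7 CPM in cell 7, 43.8 CPM in cell 9, 645 CPM in cell 10 and 963 CPM in cell 20. In the WT cells it was at 2481 CPM in cell 1, 678 CPM in cell 2, 670.1 CPM in cell 4, 2338 CPM in cell 5, 353 CPM in cell 10 and 5.54 CPM in cell 14. The genotypes overlapped: the highest values were those of WT cells 1 and 5, the lowest that of WT cell 14, and Tnmd-/- cells 10 and 20 lay between WT cells 10 and 5. The values of Tnmd-/- cells 1, 3, 7 and 9 lay between that of WT cell 14 and those of all other WT cells. Among these low cells, WT cell 14 and Tnmd-/- cells 7 and 3 had the fewest genes with at least 10 counts of all libraries. Tnmd-/- cells 1 and 9 had 3180 and 3183 such genes.

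The median over cells was 61.0 CPM in Tnmd-/- and 674 CPM in WT cells. Some neighbours in this order lay within counting error of each other. The Poisson intervals of WT cell 2 (655 to 702 CPM) and WT cell 4 (656 to 685 CPM) overlapped each other and that of Tnmd-/- cell 10 (629 to 660.4 CPM). Those of Tnmd-/- cells 3, 1, 9 and 7, taken in falling order, each overlapped the next. From the lowest to the highest cell Lox spanned 448-fold. Among the 213 genes that reached 10 counts in every cell, the median span was 154-fold, and 168 of them, 78.9%, spanned less than Lox.

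Summed over cells, Lox had 14007 counts or 399 CPM (interval 393 to 406 CPM) in Tnmd-/- cells and 59415 counts or 1112 CPM (1103 to 1121 CPM) in WT cells. The pooled log2 ratio of these levels, Tnmd-/- over WT, was -1.48 (-1.50 to -1.45), a level 2.79-fold lower in the Tnmd-/- sum. The interval is exact and covers counting error only, which is far smaller than the spread between cells. A few cells carried the sums, since Tnmd-/- cell 10 gave 47.4% of the Lox counts of its genotype and WT cell 5 gave 47.3%. Without WT cell 5 the ratio was -0.92, and without Tnmd-/- cell 20 it was -2.07.

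The Lox ratio was further from 0 in the more degraded cells. Within the less degraded cells the summed levels were 496 and 1083 CPM, a log2 ratio of -1.13 (-1.15 to -1.10). In their more degraded counterparts the levels were 54.0 and 1184 CPM, a ratio of -4.46 (-4.60 to -4.32). The difference between these ratios was not tested, as each level holds 3 cells a genotype. The 3 more degraded Tnmd-/- cells lay close together, from 34.7 to 69.1 CPM, while the 3 more degraded WT cells held both the highest and the lowest Lox level of all 12. Setting the less against the more degraded cells of one genotype gave a log2 Lox ratio of 3.20 in Tnmd-/- and -0.13 in WT cells. In the Tnmd-/- cells the less degraded cells 10 and 20 were high, while the less degraded cell 9 was as low as the more degraded cells. The part of degradation in the genotype ratio was not tested.

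**Figure D2:**
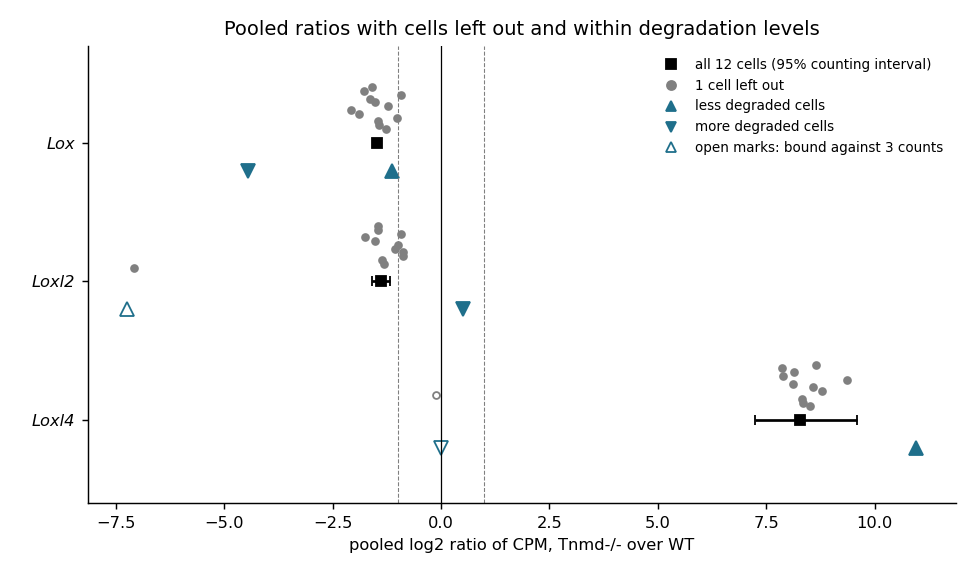
Pooled log2 ratio of CPM, Tnmd-/- over WT, for the 3 members with counts. Squares with bars are all 12 cells with the 95% counting interval, grey circles leave out 1 cell each, triangles use only the less or only the more degraded cells, open marks are bounds against 3 counts, and dashed lines mark a 2-fold difference. Lox stayed below 0 throughout, from -4.46 to -0.92, whereas Loxl2 stood at 0.52 in the more degraded cells.

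Loxl2, an enzyme known for cross-linking the collagen IV of basement membranes, was counted in 7 of the 12 cells. In the Tnmd-/- cells its counts were 242 in cell 1, 3 in cell 7, 1 in cell 3 and 0 in cells 9, 10 and 20. In the WT cells they were 420 in cell 5, 311 in cell 1, 211 in cell 10, 31 in cell 14 and 0 in cells 2 and 4. At least 10 counts were thus seen in 1 of 6 Tnmd-/- and 4 of 6 WT cells, and the cells that expressed Loxl2 most in either genotype reached like levels, 45.6 CPM in Tnmd-/- cell 1 and 51.9 CPM in WT cell 1.

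The summed level of Loxl2 was 7.01 CPM (6.16 to 7.94 CPM) in Tnmd-/- and 18.2 CPM (17.1 to 19.4 CPM) in WT cells. The pooled log2 ratio was -1.38 (-1.58 to -1.17). Tnmd-/- cell 1 gave 98.4% of the counts of its genotype, and without it the ratio was -7.08. Within the less degraded cells the Tnmd-/- sum was 0 counts and the WT sum 16.6 CPM, so Loxl2 was at least 151-fold lower there (against 3 counts in the sum). Within the more degraded cells the direction was the other way, 31.9 against 22.3 CPM, a ratio of 0.52 (0.27 to 0.76). The ratio was -0.87 without Tnmd-/- cell 9 and -0.93 without WT cell 5, both short of 2-fold.

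Loxl4 was carried by a single cell. Tnmd-/- cell 9 held 1427 counts, 138 CPM, and the other 5 Tnmd-/- cells held 0. Of the WT cells, cell 2 had 4 counts, cell 14 had 2, cell 5 had 1, and the rest had 0. The genotypes thus differed in 1 cell and overlapped in all others. The summed levels of 40.7 and 0.131 CPM gave a log2 ratio of 8.28 (7.23 to 9.60). Without Tnmd-/- cell 9 no Loxl4 count was left in the genotype, and the ratio became a bound of -0.11 against 3 counts. Tnmd-/- cell 9 was also the one less degraded cell in which Lox was low, at 43.8 CPM, and there Loxl4 exceeded Lox on the TPM scale, with 84.98 against 23.8 TPM.

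Of the 3 members with at least 20 counts over all cells, 2 (Lox and Loxl2) were at least 2-fold lower and 1 (Loxl4) at least 2-fold higher in the Tnmd-/- sum, with 1 CPM added to both levels. Of all 9768 genes past that minimum, 34.9% were as far lower and 35.5% as far higher, so that differences of this size were common among genes read in 6 cells against 6. The median log2 ratio was -1.26 over the 3 members and 0.06 over all 9768 genes. Without WT cell 5 neither Lox nor Loxl2 was 2-fold lower, without Tnmd-/- cell 9, 10 or 20 or WT cell 1 a single member was, and without Tnmd-/- cell 9 no member was 2-fold higher.

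Summed over its members, the family reached 447 CPM in Tnmd-/- and 1130.2 CPM in WT cells, a log2 ratio of -1.34 (-1.36 to -1.31). Per cell, the family sum ran from 38.1 to 963 CPM in Tnmd-/- and from 12.8 to 2532 CPM in WT cells. Without WT cell 5 the family ratio was -0.78. Lox gave more than 90% of the family's counts in 9 of the 12 cells. The exceptions were Tnmd-/- cell 9 with 24.1%, where Loxl4 gave the rest, and WT cell 14 with 43.1% and Tnmd-/- cell 1 with 53.7%, where Loxl2 gave most of the rest. No cell had 10 counts of both Loxl2 and Loxl4. With Loxl4 seen in 1 cell and Loxl2 in 5 of 12, this says little about whether they occur together.

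Depth and markers of other cell types were read beside these values. With each cell thinned to the 892713 counts of the shallowest, Lox kept at least 10 counts in 11 cells (WT cell 14 had 3), Loxl2 in 4 and Loxl4 in 1 (107 counts). Of 5 mural cell markers, 2 had a count, and nearly all of it was Cspg4, a proteoglycan that other cells also make. The list sum lay between 0 and 118 CPM in the Tnmd-/- cells, highest in cell 9, which held the Loxl4 counts. Tnmd-/- cell 10 was close to it at 96.7 CPM and had 0 Loxl4 counts. In the WT cells the sum lay between 0 and 641 CPM, highest in cell 5, which was second for Lox. WT cell 1, first for Lox, had 0 CPM of these markers. The defining markers Rgs5, Kcnj8 and Myh11 were at 0. Of 6 immune markers, 1 had a count, and their sum did not exceed 0.871 CPM, with Ptprc at 0. Of 6 endothelial markers, 4 had a count, their sum reached 30.9 CPM in Tnmd-/- cell 1, which held nearly all Loxl2 counts of its genotype, and did not exceed 1.99 CPM in any other Tnmd-/- or 0.220 CPM in any WT cell, and Cdh5 and Emcn were at 0. Of 6 cartilage markers, 3 had a count, with sums of 0 to 1330.4 CPM in Tnmd-/- and 1.68 to 253 CPM in WT cells and Col2a1, Col9a1 and Matn3 at 0, and Acan alone gave 849 CPM in Tnmd-/- cell 9 and 1042 CPM in Tnmd-/- cell 10. Of 5 skeletal muscle markers, 2 had a count, with sums of up to 6.72 CPM in Tnmd-/- and 0.0802 CPM in WT cells and Ckm and Myh4 at 0. The part of these markers in the differences was not tested.

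The gene with the pattern second most like that of Lox over the 12 cells was AC161119.1 (ENSMUSG00000118365), an antisense transcript that starts inside Lox and runs the other way. Its 3 exons lie on the plus strand of chromosome 18, within 52528661 to 52577325, and 30 bases of its exon 1 are shared with Lox exons. Its exons of 86, 219 and 244 bases are otherwise clear of Lox exons. The libraries carry no strand, so reads in the overlap cannot be given to either gene.

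In the Tnmd-/- cells AC161119.1 was at 1.88 CPM in cell 1, 8.64 CPM in cell 3, 20.2 CPM in cell 7, 0.194 CPM in cell 9, 994 CPM in cell 10 and 1577 CPM in cell 20. In the WT cells it was at 1287 CPM in cell 1, 62.6 CPM in cell 2, 812 CPM in cell 4, 331 CPM in cell 5, 618 CPM in cell 10 and 1.33 CPM in cell 14. The 5 cells with the lowest Lox, namely Tnmd-/- cells 1, 3, 7 and 9 and WT cell 14, were also the 5 with the lowest AC161119.1, none above 20.2 CPM. Pearson's r of log2(CPM + 1) with Lox was 0.87 over the 12 cells, which are separate libraries of differing depth, and it is a description of a gene chosen for its likeness. The summed levels of the antisense gene differed little between genotypes, 596 CPM in Tnmd-/- and 571 CPM in WT cells, a log2 ratio of 0.06 (0.04 to 0.09). The Tnmd-/- sum rests on cells 10 and 20, which held 10242 and 10631 of its 20916 counts. For this gene no ratio was made with a cell left out or with cells weighted equally. The r of AC161119.1 with Loxl2 was -0.00.

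**Figure D3:**
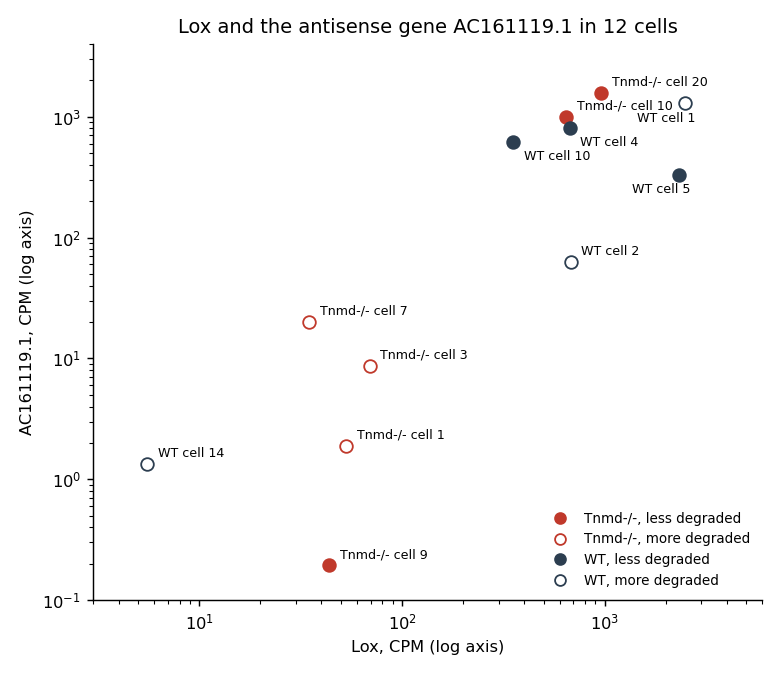
CPM of Lox against CPM of the antisense gene AC161119.1 in the 12 cells, both on log axes, each point a cell named by genotype and number. The 5 cells with the lowest Lox have at most 20.2 CPM of the antisense gene, and the other 7 have at least 62.6 CPM.

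The other genes most like Lox were Capzb, an actin capping protein (r 0.90), and Dhx40, a putative RNA helicase (r 0.86). For Loxl2 they were Ostf1 (r 0.92), Evi5 (r 0.91), and Osbp, an oxysterol binding protein (r 0.90). These were picked as the highest among 3189 genes seen in 4 cells or more, so their r are high by choice.

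Genes for the proteins that act with Lox were read next, and the counts and medians of each list use ratios with 1 CPM added, while the ratio given for a single gene does not. The shares of all genes to set beside each list are the 34.9% lower and 35.5% higher given above. Of the 34 partner genes with at least 20 counts, 25 were past 2-fold in either direction, beside 70.4% of all genes. Of the 25, 7 stayed past 2-fold whichever cell was left out. The share of all genes that stay past it in this way was not computed, so these 7 have no background to be set against. The 7 were Atp7a, Fmod, Col4a1, Tgm2 and Ccn2, which were lower, and Fkbp10 and Hif1a, which were higher. Each of the other calls was lost when a certain single cell was left out. With each cell weighted equally the ratio of Hif1a with 1 CPM added was 0.95, short of 2-fold.

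Of 10 genes for processing of the Lox pro-enzyme and its scaffold, 6 had at least 20 counts, of which 3 were 2-fold lower, 1 higher and 2 within 2-fold in the Tnmd-/- sum (median log2 ratio -0.57), against 34.9% and 35.5% of all genes. With 1 cell left out, 2 to 4 were lower and 0 to 1 higher. Bmp1, the protease that removes the pro-peptide, was counted in WT cell 4 with 1305 counts and with 3 counts in the Tnmd-/- cells, and Tll1 and Tll2, its relatives, had 0 counts. Fn1, the fibronectin on which processing takes place, was seen in all 12 cells, at 3577 CPM in Tnmd-/- and 8641 CPM in WT sums (log2 ratio -1.27, from -1.28 to -1.26). Tnmd-/- cell 9 gave 63.9% and WT cell 10 gave 64.9% of these counts, and without WT cell 10 the ratio of Fn1 with 1 CPM added was -0.19.

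Pcolce2, an enhancer of procollagen processing, was also seen in all 12 cells. It stood at 3781 CPM in Tnmd-/- and 2990.2 CPM in WT sums, a log2 ratio of 0.34. With 1 CPM added the ratio was 0.063 without WT cell 5 and -0.063 with each cell weighted equally, so its direction did not hold. Over the partner genes seen in at least 4 cells, r with Lox ran from -0.51 (Thbs1) to 0.68 (Pcolce2), with Fn1 at 0.56 and Plod3 at 0.62. The share of all genes with such an r was not computed. Pcolce2 was lowest in Tnmd-/- cells 3 and 7 and WT cell 14, at 33.9, 76.2 and 11.1 CPM. These were also the libraries with the fewest genes at 10 counts or more. Pcolce was at 134 and 123 CPM, with 99.8% of the Tnmd-/- counts in cell 20. Thbs1, thrombospondin-1, was at 97.5 and 383 CPM (log2 ratio -1.97), and its ratio with 1 CPM added was -0.83 without WT cell 14. Adamts2, a procollagen N-proteinase, had 2736 of its 2737 Tnmd-/- counts in cell 1 and 1411 of its 1419 WT counts in cell 4, with a log2 ratio of 1.55, and Postn had 5 counts in all.

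Copper reaches lysyl oxidases through the secretory pathway. Of 5 copper supply genes, 3 had at least 20 counts, with 1 lower and 2 within 2-fold (median -0.55), and 34.9% of all genes were as far lower. With 1 cell left out, 1 to 2 were lower and 0 to 1 higher. Atp7a, the pump that loads copper into the secretory pathway, had 504 counts in WT cell 1, 1165 in WT cell 4, 1281 in WT cell 5 and 5 in the Tnmd-/- cells, a log2 ratio of -8.60 (-10.22 to -7.37). WT cells 1 and 5 were also the cells with the highest Lox, but Tnmd-/- cell 20, next after them for Lox, had 0 Atp7a counts. Atox1, the copper chaperone that feeds the pump, was seen in 4 cells of each genotype at 148 and 144 CPM. Slc31a1, the copper importer, was seen in 1 cell of each genotype.

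Fibrillar and basement membrane collagens are substrates of the family. Of 9 collagen genes, 7 had at least 20 counts, of which 5 were 2-fold lower, 0 higher and 2 within 2-fold (median -2.53), beside the 34.9% lower and 35.5% higher of all genes. With 1 cell left out, 3 to 6 were lower, and with each cell weighted equally 4 were lower and 2 higher. Col1a2, an alpha chain of type I collagen, was seen in all 12 cells at 237 and 302 CPM (log2 ratio -0.35), and its r with Lox was -0.43. Col1a1 had 1990 counts in the Tnmd-/- cells, 99.6% of them in cell 7, and 3443 in the WT cells (log2 ratio -0.18). Both type I collagen chains were within 2-fold in the sums, but with each cell weighted equally the ratios with 1 CPM added were 2.22 for Col1a1 and 1.05 for Col1a2, and without Tnmd-/- cell 7 that of Col1a1 was -5.76. The lower genes were Col3a1, Col4a1, Col4a2, Col5a1 and Col5a2. All WT counts of Col4a2 came from WT cell 4 and all of Col5a1 from WT cell 5. WT cell 4 also gave 91.5% of the WT counts of Col3a1 and 85.6% of those of Col4a1, a basement membrane collagen, while Col5a2 was seen in 4 cells of each genotype at 138 and 374 CPM (log2 ratio -1.44, and -0.60 with 1 CPM added and WT cell 10 left out).

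Set against its substrates per length in the summed libraries, Lox stood 9.67-fold above Col1a1 in Tnmd-/- and 23.7-fold above it in WT sums on the TPM scale. Against Col1a2 the ratio of TPM was 4.38 in Tnmd-/- and 9.57 in WT sums. This order did not hold in every cell or with each cell weighted equally. The mean over the Tnmd-/- cells was 167.3 TPM for Lox, 170.4 TPM for Col1a1 and 167.02 TPM for Col1a2, a ratio of 0.98 to Col1a1 and 1.00 to Col1a2, while over the WT cells the ratios of these means were 19.0 and 8.15. Col1a2 was above Lox in Tnmd-/- cells 1, 3 and 7 (797 against 21.9 TPM in cell 7) and in WT cell 14 (168 against 3.02 TPM). Col1a1 was above Lox in Tnmd-/- cell 7 and WT cell 14.

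**Figure D4:**
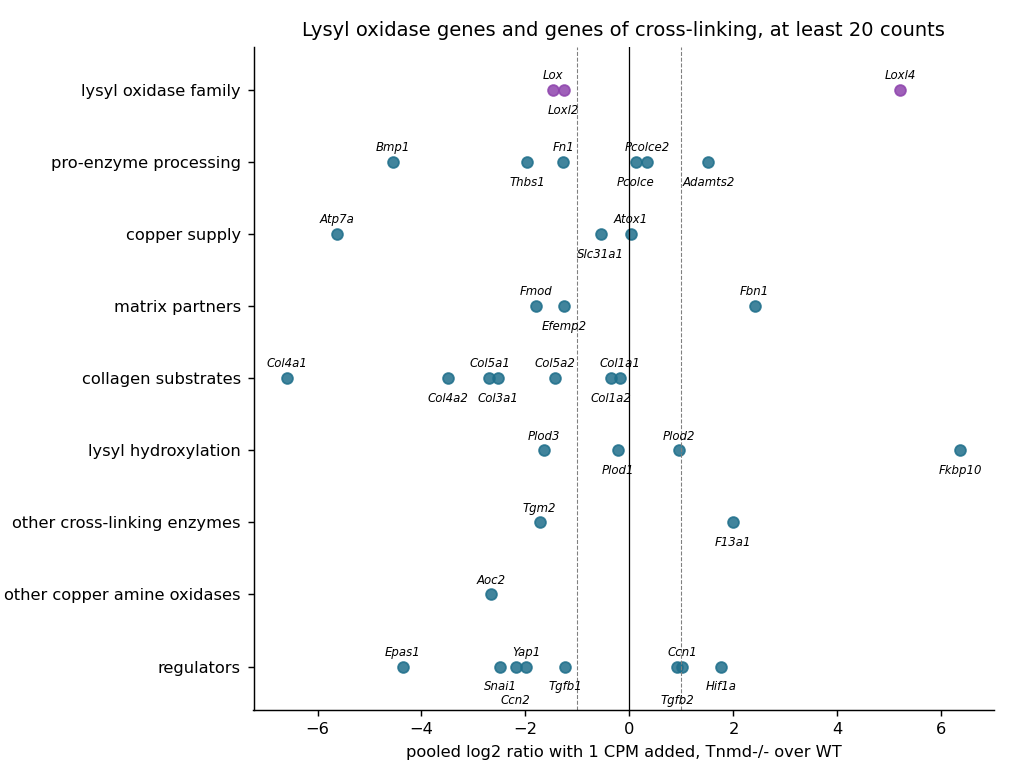
Pooled log2 ratio of CPM with 1 CPM added, Tnmd-/- over WT, for family members (purple) and genes of the partner lists (blue) with at least 20 counts, grouped by role, with dashed lines at a 2-fold difference. The 5 collagens past the dashed line all lie on the side lower in Tnmd-/-, whereas the lysyl hydroxylation genes lie on both sides.

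Of 5 matrix partners, 3 had at least 20 counts, with 2 lower and 1 higher (median -1.25), beside 34.9% and 35.5% of all genes. Leaving out 1 cell gave 1 to 3 lower and 0 to 1 higher. Fmod, fibromodulin, a small proteoglycan that binds collagen and Lox, was at 192 and 668 CPM (log2 ratio -1.80), with 98.5% of the Tnmd-/- counts in cell 20. Efemp2, fibulin-4, which tethers Lox to elastin, had 0 counts in Tnmd-/- and 74 in WT cells, and Fbn1, fibrillin-1, had 788 and 183. Eln, elastin itself, had 11 counts, all in Tnmd-/- cell 7.

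Lysyl hydroxylases modify the lysines that Lox later oxidises. Of 5 genes for this step, 4 had at least 20 counts, with 1 lower, 1 higher and 2 within 2-fold (median 0.37), beside 34.9% and 35.5% of all genes. Leaving out 1 cell gave 0 to 2 lower and 1 to 2 higher. Plod2, the hydroxylase of the collagen telopeptides, was at 420.3 and 217 CPM, a log2 ratio of 0.96 just within 2-fold, and was seen in 5 Tnmd-/- and 4 WT cells. With 1 CPM added its ratio was 1.37 with each cell weighted equally, past 2-fold. Leaving out 1 cell gave 0.59 to 1.97. Lox transcripts stood 1.07-fold above those of Plod2 in Tnmd-/- and 5.79-fold above them in WT sums on the TPM scale. With each cell weighted equally the Tnmd-/- ratio was 0.833, with a mean of 201 TPM for Plod2, and Plod2 was above Lox in Tnmd-/- cells 1, 7 and 9 and WT cell 10. Fkbp10, the chaperone of that hydroxylase, had 2066 counts in Tnmd-/- cell 10, 993 in Tnmd-/- cell 20 and 4 in the WT cells (log2 ratio 10.19, from 8.83 to 12.06). Tnmd-/- cells 10 and 20 were the Tnmd-/- cells with the highest Lox, but WT cells 1 and 5, with the highest Lox of all, had 0 and 1 Fkbp10 counts. Plod3 was at 54.2 and 171 CPM (log2 ratio -1.65), seen in 1 Tnmd-/- and 4 WT cells.

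Enzymes of other cross-links were few. Tgm2, a transglutaminase, was at 158 and 525 CPM (log2 ratio -1.73), and F13a1, a factor XIII subunit, had 107 counts in Tnmd-/- cell 9 and 1 in the WT cells. Of 3 other copper amine oxidases, Aoc2 had 294 counts in WT cell 1, 1 in WT cell 10 and 1 in the Tnmd-/- cells, and Aoc1 and Aoc3 had 0.

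Of 12 genes known to regulate Lox or its relatives in other settings, 8 had at least 20 counts, with 5 lower, 2 higher and 1 within 2-fold (median -1.61), beside 34.9% and 35.5% of all genes. Leaving out 1 cell gave 3 to 5 lower and 1 to 4 higher. Ccn2, connective tissue growth factor, was at 347 CPM in Tnmd-/- and 1587 CPM in WT sums (log2 ratio -2.19), seen in 5 and 4 cells, with an r of 0.59 with Lox. Hif1a, the hypoxia-inducible factor, was at 435 and 128 CPM (log2 ratio 1.77, and 0.95 with 1 CPM added and each cell weighted equally), and its r with Lox was -0.06. Ccn1, a matricellular relative of Ccn2, was at 501 and 248 CPM (log2 ratio 1.01). Tgfb1 was seen in 1 cell of each genotype and Tgfb2 in 3 and 2 cells, with log2 ratios of -1.58 and 0.94.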

How the data were processed

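Single-cell full-length libraries (Smart-Seq2, without molecular identifiers or strand) of 12 cells were used. The authors aligned reads to GRCm38 (STAR 2.5.1b, per the labels, which also list Subread 2.0.0) and deposited raw counts of reads in exons per gene with each gene's exon length. From these counts, CPM used each cell's total and TPM the deposited length. All 55418 symbols were found in GENCODE M21, and 99.9% had the same exon length there, so that annotation gave positions. No pair of cells had identical counts.

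Labels gave the genotype, and cells are named by their number there. The degradation level was read from the annotation of the study's heat map. Counts were summed by genotype. Ratios carry exact 95% intervals (Clopper-Pearson) and single levels exact Poisson intervals, both for counting error only, since amplified reads are not independent molecules. A sum of 0 gave a bound against 3 counts. A gene was called seen in a cell with at least 10 counts, and 2-fold calls used 1 CPM added and genes with at least 20 counts. The ratio and interval steps were tested on simulated data.

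Genes named were the 5 members, Tnmd and Scx, listed partner and marker genes (matched by symbol or RefSeq synonym), and the 3 genes with the highest r per member seen in at least 4 cells. AC161119.1 was followed further after its values were seen. Members and lists were chosen with earlier results of these data known. Alternatives used other scalings (DESeq2 1.42.0 size factors, edgeR 4.0.16 TMM), equal cell weights, totals without mitochondrial genes, each degradation level, each cell left out, other minimum counts and 5 CPM added. Python 3.11.15 with scipy 1.17.1 and R 4.3.3 were used.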

Additional observations from a re-analysis of the deposited data

Results flagged for a closer look

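In 6 groups of 6 cells (Lox, Loxl2 and Loxl4 in each genotype), the gap between the extreme cell and its neighbour was set against the whole range on the log2(CPM + 1) scale, and 2 cells passed Dixon's 95% critical value. Lox in WT cell 14, at 5.54 CPM, lay below the other WT cells by a gap of 0.672 of the range. That library also had the fewest genes with at least 10 counts, 1350, and the part of this in its Lox level was not tested. Loxl4 in Tnmd-/- cell 9, at 138 CPM, lay above 5 cells with 0 counts, so that its gap was 1, the whole range. A gap of 1 follows from 5 zeros and a single counted cell, and of the genes that passed 10 counts anywhere, 42.0% did so in 1 cell only. For groups without such zeros, chance flags about 1 in 20.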

How the results depend on the processing

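Each genotype was 1 sample, so what follows are values without tests. A level among the reads under 0.0855 CPM (Tnmd-/-) or 0.0561 CPM (WT) was not detectable at this depth. Transcripts lost before sequencing are not covered by these limits. Loxl1 and Loxl3, with 0 counts, gave no ratio under any alternative. With each cell weighted equally the log2 ratio was -1.85 for Lox, -1.14 for Loxl2, 6.67 for Loxl4 and -1.73 for the family sum. With edgeR TMM factors, which shift every log2 ratio by -0.19, it was -1.67 for Lox and -1.53 for the family, and with totals without mitochondrial genes -1.44 and -1.30. In the less degraded cells alone it was -1.13 for Lox, a bound of -7.24 for Loxl2, 10.96 for Loxl4 and -1.003 for the family. In the more degraded cells alone it was -4.46 for Lox, 0.52 for Loxl2 (reversed) and -3.81 for the family. For Loxl4 it was a bound of -0.0078, reversed in sign only, from 0 against 6 counts. Counts this near the floor give no direction. In these cells 1 member was 2-fold lower and 0 were higher. Without Tnmd-/- cells 3 and 7, an alternative chosen after seeing the data, the ratio was -1.39 for Lox and -1.25 for the family. With 5 CPM added, 1 member was 2-fold lower, and with a single count as the limit Loxl4 was seen in 4 cells. Leaving out 1 cell gave -2.07 to -0.92 for Lox, -7.08 to -0.87 for Loxl2 and -1.80 to -0.78 for the family. It gave -0.11 to 9.36 for Loxl4, 0 to 2 members lower and 0 to 1 higher. The -0.11, without Tnmd-/- cell 9, was a bound reversed in sign only, from 0 against 7 counts. The cause of these shifts was not tested. For the members, 34 of 72 values without 1 cell and 39 of 61 under other alternatives stayed within the counting interval or, for counts and shares, within 1.5-fold. For the partner genes, alternatives added after seeing the data left out each cell or weighted cells equally. With 1 cell left out, the ratio with 1 CPM added changed sign for these genes past 2-fold: Bmp1 (-4.96 to 0.12), Adamts2 (-4.74 to 6.05), Fbn1 (-2.10 to 4.45), Col3a1 (-4.07 to 0.44), Col4a2 (-3.88 to 0.041), F13a1 (-0.027 to 2.38), Aoc2 (-3.03 to 0.0105), Tgfb1 (-2.87 to 1.64), Yap1 (-3.13 to 1.30) and Snai1 (-2.86 to 0.42). With cells weighted equally Col3a1 stood at 0.034 and the ratio of Lox to Col1a1 in Tnmd-/- cells on the TPM scale at 0.982. The share of all genes past 2-fold was 70.4%, and 75.6% with a minimum of 100 counts and 56.5% with 5 CPM added. No paired analysis was possible because the ratios come from no test and the cell numbers shared by the genotypes only name picked cells.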
